A study of Homo sapiens with 6 samples.

Results

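CYP26A1, the cytochrome P450 that breaks down retinoic acid, was examined together with 8 further genes of retinoic acid signalling (CYP26B1, ALDH1A3, DHRS3, CRABP2, RARA, RARB, RARG and RXRA) in tongue carcinoma cells with and without knockdown of XBP-1s. The 9 genes were named with the difference between shXBP-1s and shCtrl on these same arrays already known, so the values of that difference are given for them as a description and with no p-value. Through the RefSeq accession attached to each probe they matched 12 of the 34127 probes and 9 of the 19740 named genes on the array. Of these, 11 probes for 8 genes were bright enough to be tested, among 27624 tested probes in all.

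CAL-27 cells, a long-established human line, derive from a squamous carcinoma of the tongue. The cells were stably transduced with a short hairpin RNA against XBP-1s (shXBP-1s, 3 arrays) or with a negative control hairpin (shCtrl, 3 arrays), and total RNA of each sample was labelled with Cy3 and hybridised to a one-colour Agilent whole-genome array, the comparison being meant to show which mRNAs change when XBP-1s is knocked down. XBP-1s is the transcription factor made from XBP-1 mRNA after IRE1α has spliced it during stress of the endoplasmic reticulum. No retinoid is named among the treatments, retinoic acid itself was not measured, and nothing in the labels says that the 3 samples of a group came from separate cultures, so the spread between arrays may be technical.

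Retinoic acid, the active form of vitamin A, is made from retinol in 2 oxidation steps, the first by retinol dehydrogenases and the second by retinaldehyde dehydrogenases such as ALDH1A3, while DHRS3 turns retinaldehyde back into retinol. In the cell it is carried by CRABP2 to the nuclear receptors RARA, RARB and RARG, which pair with a retinoid X receptor such as RXRA on DNA, and it is cleared by the CYP26 enzymes. CYP26A1, RARB, DHRS3 and CRABP2 are themselves known to be induced by retinoic acid, and in stratified epithelia such as that of the tongue retinoids are known for holding back keratinisation.

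Repeated AG(G/T)TCA hexamers spaced by 5 bases, called a DR5, are a classical element bound by the paired receptors, and ACGTGG is a core bound by XBP1. The 250 bases before each annotated start of the 9 genes (18 starts, RefSeq, GRCh38.p14) were therefore searched on both strands. The pair of CYP26A1 windows is shown because that gene had the largest difference of the 9, with the DR5 and each ACGTGG in capitals. The start 1 window lies at chr10:93073225-93073474 and the start 2 window at chr10:93073643-93073892, both on the plus strand.
CYP26A1 start 1: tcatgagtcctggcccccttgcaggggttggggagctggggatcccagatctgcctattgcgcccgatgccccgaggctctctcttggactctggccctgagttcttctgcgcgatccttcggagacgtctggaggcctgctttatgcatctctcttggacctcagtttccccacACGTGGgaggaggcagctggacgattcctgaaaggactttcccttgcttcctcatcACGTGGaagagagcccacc
CYP26A1 start 2: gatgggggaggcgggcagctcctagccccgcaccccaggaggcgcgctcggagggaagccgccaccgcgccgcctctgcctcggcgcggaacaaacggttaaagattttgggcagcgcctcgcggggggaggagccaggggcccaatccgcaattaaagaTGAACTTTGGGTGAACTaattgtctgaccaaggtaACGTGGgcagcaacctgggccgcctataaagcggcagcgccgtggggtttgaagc
The capitals in the start 2 window hold the repeat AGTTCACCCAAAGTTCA, read on the opposite strand, which begins 90 bases before the start. In the letters AGNTCANNNNNAGNTCA a DR5 was present in 23 of all 35116 windows (0.0655%) and in 1 of the 18 windows searched here. The core ACGTGG lay 75 and 19 bases before start 1 and 55 bases before start 2 of CYP26A1. It was a common match, held by 8.37% of all windows, and its only other match among the 9 genes was 63 bases before start 1 of RARB. RARB, the other gene of the 9 in which a search for such repeats found a match, and then only with wider letters, is shown for comparison with that match in capitals. Its start 3 window lies at chr3:25428013-25428262 on the plus strand.
RARB start 3: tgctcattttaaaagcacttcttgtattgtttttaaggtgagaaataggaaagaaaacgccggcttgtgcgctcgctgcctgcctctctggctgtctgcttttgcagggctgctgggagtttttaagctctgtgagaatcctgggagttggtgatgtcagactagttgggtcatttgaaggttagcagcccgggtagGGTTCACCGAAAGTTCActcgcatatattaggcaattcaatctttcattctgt
This repeat, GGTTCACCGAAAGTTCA, begins 53 bases before the start and was found with the wider letters NGNTCANNNNNNGNTCA, which were tried after the first search and are held by 204 windows (0.581%). Repeats spaced by 1 or by 2 bases (AGNTCANAGNTCA and AGNTCANNAGNTCA) were in none of the 18 windows. Single AGGTCA hexamers, present in 12.1% of all windows, were in 3 of the 18, and single AGTTCA hexamers, present in 8.80%, were also in 3, in CYP26A1 and RARB only, and inside the repeats just given in 2 of these 3. The letters CCACG, which lie on the other strand of every ACGTGG, were in 33.5% of all windows and in 7 of the 18, and TGACGTG, in 1.68% of all windows, was in none of them. A match of letters is not a site at which a factor was measured, and which of its starts CYP26A1 uses in these cells was not tested.

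**Figure D1:**
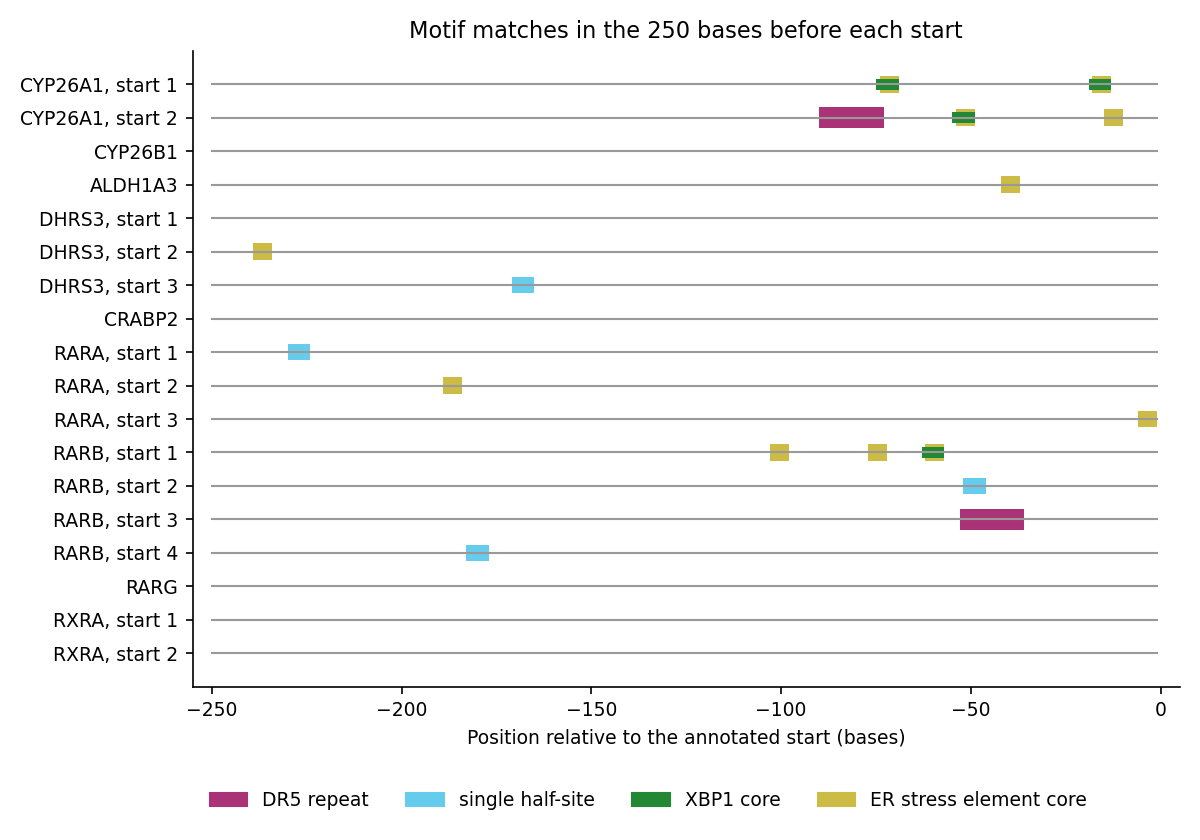
Position of each motif match (horizontal axis, bases relative to the annotated start) in the 18 windows of 250 bases (1 line for each start), with DR5 repeats, single hexamers (half-sites outside a repeat), the XBP1 core ACGTGG and the ER stress element core CCACG in separate colours. CYP26A1 start 2 is the only line that holds both a DR5 and an ACGTGG, and the repeat on the RARB start 3 line needed the wider letters.

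XBP1 itself was at log2 levels of 1.88, 1.85 and 1.87 on the shCtrl arrays and of -0.50, -0.54 and -0.52 on the shXBP-1s arrays. A log2 level here is the log2 of the processed signal of a probe minus the log2 of the 75th percentile of its array, and it may be compared between arrays but not between probes. The difference of -2.39 (SE 0.04) left 19.1% of the control level, and whether the probe separates spliced from unspliced XBP1 mRNA was not tested. Between 82.1% and 84.8% of spots were well above background on the 6 arrays and none was saturated. Slides are not labelled and were read from the scan identifier in the header of each array. By it, all 3 shXBP-1s arrays and shCtrl replicate 1 were on one slide and shCtrl replicates 2 and 3 on another. The differences of CYP26A1, ALDH1A3, DHRS3, RARB and RDH10 are therefore also given with these slides kept apart. Of the tested probes, 1354 (4.90%) passed an adjusted p of 0.05 with a difference of at least 2-fold, which is what is meant below by a called probe. The 6 markers fixed for squamous epithelium were above background on all arrays. So were the leukocyte and endothelial markers given below, so this does not test the label of the cells. KRT5, KRT14 and KRT6A rose by 1.43, 1.58 and 4.28 on the log2 scale and were called. TP63 rose by 0.93, short of 2-fold, and CDH1 and EPCAM did not pass the adjusted p. The summed level of the 6 markers was 56.9 to 59.0 times the 75th percentile on shCtrl arrays and 68.4 to 76.3 times it on shXBP-1s arrays. Of 4 fibroblast markers, COL3A1 was not well above background on any array, PDGFRB fell by 1.28 and the summed level was 0.908 to 0.999 in shCtrl and 0.450 to 0.496 in shXBP-1s. The 4 leukocyte and 3 endothelial markers also had probes well above background on all arrays. None of them was called, with summed levels of 0.691 to 0.747 against 0.767 to 0.864 and of 0.197 to 0.259 against 0.244 to 0.260. Fewer cells of a kind and less RNA per cell cannot be told apart in such bulk RNA, and the part of these marker changes in the values below was not tested.

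Of the 3 enzymes that break down retinoic acid, CYP26A1 was far lower in shXBP-1s cells. Its processed signal was 70.4, 111 and 97.4 on the 3 shCtrl arrays and 14.0, 11.7 and 13.3 on the 3 shXBP-1s arrays, and its log2 level was -3.29, -2.77 and -2.96 against -6.13, -6.25 and -5.90. All 3 shXBP-1s arrays thus lay far below all 3 shCtrl arrays, while the probe (NM_057157) remained well above background on each of the 6. The shCtrl mean was -3.01 ± 0.26 and the shXBP-1s mean -6.09 ± 0.18 (log2 level, SD, n = 3 each). The difference of -3.09 (SE 0.16, 95% interval -3.45 to -2.72) is 8.50-fold, with 11.8% of the control level left. CYP26A1 was the 1 member of the 9 that was called, where 5.18% of all tested genes were called by their brightest probe, 2.88% of all as lower and 2.30% as higher. Within the shared slide, against shCtrl replicate 1 alone, the difference was -2.81. Its signal in shXBP-1s lies below the offset of 50 that one background correction, normexp, adds. With that correction the difference was -1.58 (SE 0.66). This is still more than 2-fold, but it did not pass the adjusted p and was no longer called. What part the offset had in this was not tested.

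CYP26B1, which codes for a second retinoic acid hydroxylase, was close to background. Its processed signal was 3.61, 3.58 and 4.40 on shCtrl arrays and 9.23, 7.71 and 4.60 on shXBP-1s arrays, with log2 levels of -7.57, -7.73 and -7.42 against -6.74, -6.86 and -7.43. Replicate 3 of shXBP-1s lay among the shCtrl arrays and the groups overlapped. The probe was not well above background on any shCtrl array and was so on 2 of the 3 shXBP-1s arrays, so it was not tested. The measured difference was 0.57 on the log2 scale, turned to -0.94 with the normexp background correction and was 0.01 with normexp followed by quantile normalisation, so no direction is given for CYP26B1. The third family member, CYP26C1, was above background on all arrays at -6.12 ± 0.01 (SD, n = 3) and -6.16 ± 0.13 (SD, n = 3), a difference of -0.04 (95% interval -0.39 to 0.32) that did not pass the test (adjusted p = 0.865).

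**Figure D2:**
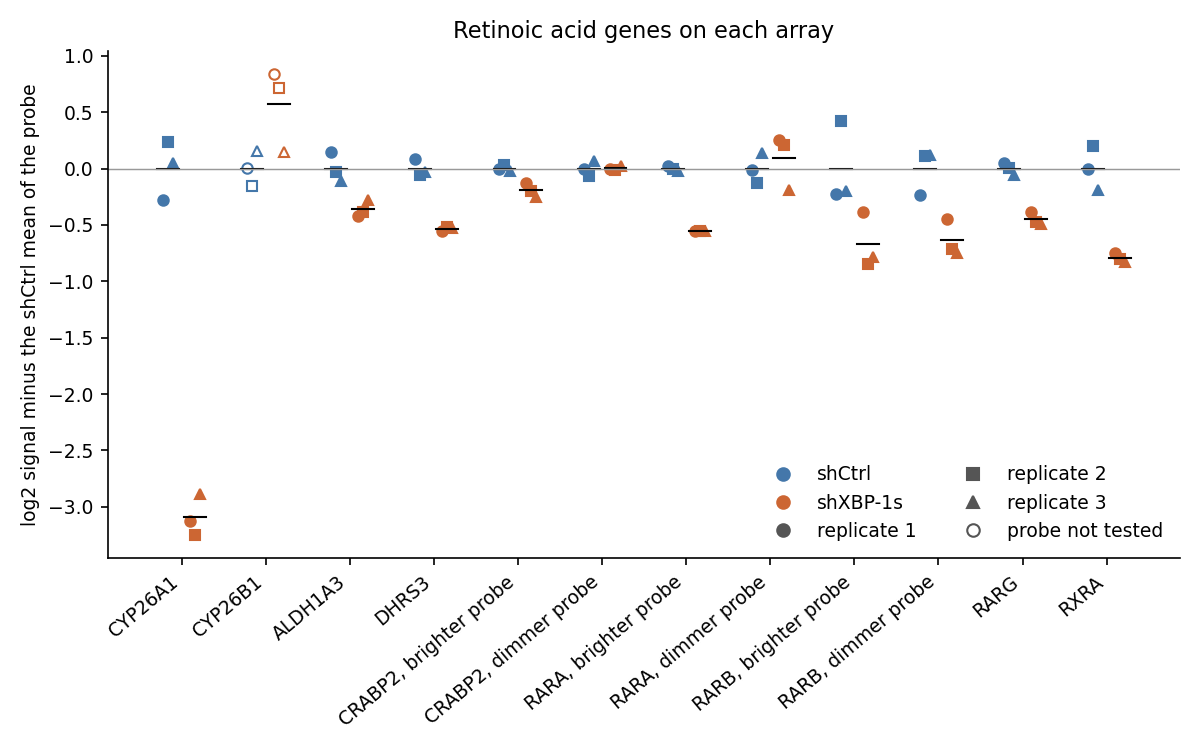
Log2 level of each probe of the 9 genes on each array minus the shCtrl mean of that probe (vertical axis, log2 units), with shCtrl in blue, shXBP-1s in orange, replicates by symbol, group means as bars and the untested CYP26B1 probe in open symbols. CYP26A1 is about 3 log2 units lower on all shXBP-1s arrays, while the other tested probes lie within 1 unit of the shCtrl mean.

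The enzymes that set the supply of retinoic acid differed less. ALDH1A3, which makes retinoic acid from retinaldehyde, was at log2 levels of 5.68, 5.50 and 5.42 in shCtrl and of 5.12, 5.15 and 5.26 in shXBP-1s. The shXBP-1s arrays were all lower, the mean difference of -0.36 (SE 0.08) leaving 77.8% of the control level. For DHRS3, the reductase that returns retinaldehyde to retinol, the levels were 3.78, 3.64 and 3.66 against 3.14, 3.17 and 3.17. These again did not overlap, with a difference of -0.53 (SE 0.05) and 69.1% left. Within the shared slide the differences were -0.51 for ALDH1A3 and -0.62 for DHRS3. ALDH1A3 overlapped between the groups, at -0.09, when arrays were compared with no scaling between them, and also with normexp, at -0.23.

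Around these members, the supply genes moved in both directions. ALDH1A1, another retinaldehyde dehydrogenase, was at -2.37, -2.28 and -2.36 in shCtrl and at -4.39, -4.44 and -4.63 in shXBP-1s, with no overlap. It fell by 2.15 on the log2 scale (SE 0.09, adjusted p = 2.36e-06) at its brighter probe, with 22.6% left, and by 1.096 with normexp followed by quantile normalisation, while its dimmer probe differed by -0.56 (SE 0.09, adjusted p = 0.00139), which is under 2-fold. ALDH1A2 was not well above background on any array. Of 13 further tested retinol and retinaldehyde oxidoreductases, 1 was called, as higher, beside 2.30% of all tested genes. It was AKR1B10, an aldo-keto reductase active on retinaldehyde. AKR1B10 rose by 1.41 (SE 0.10, adjusted p = 1.98e-05) at its brighter probe and by 1.69 at the other. With normexp the rise at the brighter probe was only 0.18 and the call was lost. RDH10, the main enzyme of the first oxidation step in the embryo, was higher by 0.47 (SE 0.09, adjusted p = 0.00414), or by 0.66 with the slide as a block, both short of 2-fold. In this list 5 genes passed the adjusted p alone as higher and 1 as lower, beside 18.9% and 27.5% of all tested genes, and the median difference was 0.25 against -0.04 over all tested genes.

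Among 7 tested genes of retinoid uptake, storage and carotenoid cleavage, 1 was called, as lower, beside 2.88% of all tested genes. It was LRP2, or megalin, an endocytic receptor that also takes up retinol with its carrier, which was at -0.20, -0.35 and -0.39 in shCtrl and at -1.97, -2.05 and -2.39 in shXBP-1s. The 3 shXBP-1s arrays lay well below the others and the gene fell by 1.82 (SE 0.11, adjusted p = 1.01e-05). LRAT, which esterifies retinol for storage, differed by -0.97 (SE 0.08, adjusted p = 5.38e-05), just short of 2-fold. For STRA6, the retinol transporter of the plasma membrane, the 2 probes went opposite ways, -0.42 (adjusted p = 0.0260) and 0.25 (adjusted p = 0.0622).

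CRABP2, the protein that hands retinoic acid to its receptors, differed least among the members. At its brighter probe (NM_001878) the log2 levels were -0.90, -0.88 and -0.93 in shCtrl and -1.03, -1.10 and -1.16 in shXBP-1s. The groups did not overlap, but the difference of -0.19 (SE 0.05) turned to 0.08, with overlap, when arrays were compared with no scaling. At the dimmer probe (NM_001199723) the levels were -3.51, -3.57 and -3.44 against -3.52, -3.53 and -3.49. These overlapped, with a 95% interval of the difference from -0.17 to 0.17. None of the 5 other tested retinoid binding proteins was called. CRABP1, the related protein linked to breakdown of retinoic acid, was higher by 0.21 (adjusted p = 0.0193) but at -0.090 with normexp, and FABP5, which carries retinoic acid to another receptor, by 0.14, 0.28 and 0.42 at its 3 probes (adjusted p = 0.0380, 0.00417 and 0.0105), all under 2-fold.

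The 4 receptors among the members were all lower in shXBP-1s at their brightest probe, none by 2-fold. RXRA, the common partner, was at 3.18, 3.38 and 2.999 in shCtrl and at 2.44, 2.39 and 2.35 in shXBP-1s. This was the widest gap among the receptors, -0.79 (SE 0.09, 57.7% left), with every shXBP-1s array below every shCtrl array.

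RARA, the broadly expressed receptor, was at -0.02, -0.04 and -0.06 in shCtrl and at -0.59 on each shXBP-1s array at its brighter probe. The arrays of each group lay close together and the difference was -0.56 (SE 0.04). Its dimmer probe, listed under the same transcript, gave -1.79, -1.91 and -1.64 against -1.53, -1.57 and -1.97. These overlapped, with a difference of 0.09 (SE 0.13), so the 2 RARA probes disagreed, and their mean difference was -0.23.

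RARG, the main receptor of stratified epithelium, was at -1.71, -1.75 and -1.82 in shCtrl and at -2.15, -2.23 and -2.25 in shXBP-1s. The groups were apart by -0.45 (SE 0.06). RARB, which is often silenced in squamous carcinomas, was dim but above background on all arrays, at -5.40, -4.76 and -5.38 against -5.57, -6.03 and -5.97. Its groups lay close without overlapping, and the difference was -0.67 (SE 0.22). The dimmer RARB probe was at -6.18, -5.83 and -5.82 against -6.39, -6.65 and -6.69, a difference of -0.64 (SE 0.18), so here both probes pointed the same way. Replicate 1 of each group held the lowest shCtrl value and the highest shXBP-1s value at both RARB probes, and within the shared slide the differences were -0.45 and -0.40. With no scaling between arrays, both RARB probes overlapped between the groups, at -0.40 and -0.36, and so did RARG, at -0.18. Of the remaining receptors, RXRB differed by -0.07 (95% interval -0.23 to 0.09, adjusted p = 0.444) and RXRG by 0.14 (95% interval -0.03 to 0.32, adjusted p = 0.174). The RXRG value is from a probe listed under a noncoding transcript of the gene. The other RXRG probe, listed under a coding transcript, was not well above background on any array and was not tested. None of 12 tested receptor corepressors and coactivators was called, although 7 passed the adjusted p as lower, as 27.5% of all tested genes did, with the acetyltransferase CREBBP at -0.94 (adjusted p = 7.16e-05).

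Taken by their brightest probe, all 8 tested members were lower in shXBP-1s and none overlapped with shCtrl, where 32.2% of all tested genes were lower without overlap. Their median difference was -0.54 against -0.04 over all tested genes. All 8 would pass the adjusted p of 0.05 if no fold were asked, as did 46.4% of all tested genes (27.5% as lower), and nothing is read from these counts because the choice of the 9 genes used the same difference. With no scaling between arrays the median over all probes moved from -0.02 to 0.25, and 7 of the 8 stayed lower, at -2.81 for CYP26A1 and between -0.52 and -0.09 for the others, with CRABP2 the exception.

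**Figure D3:**
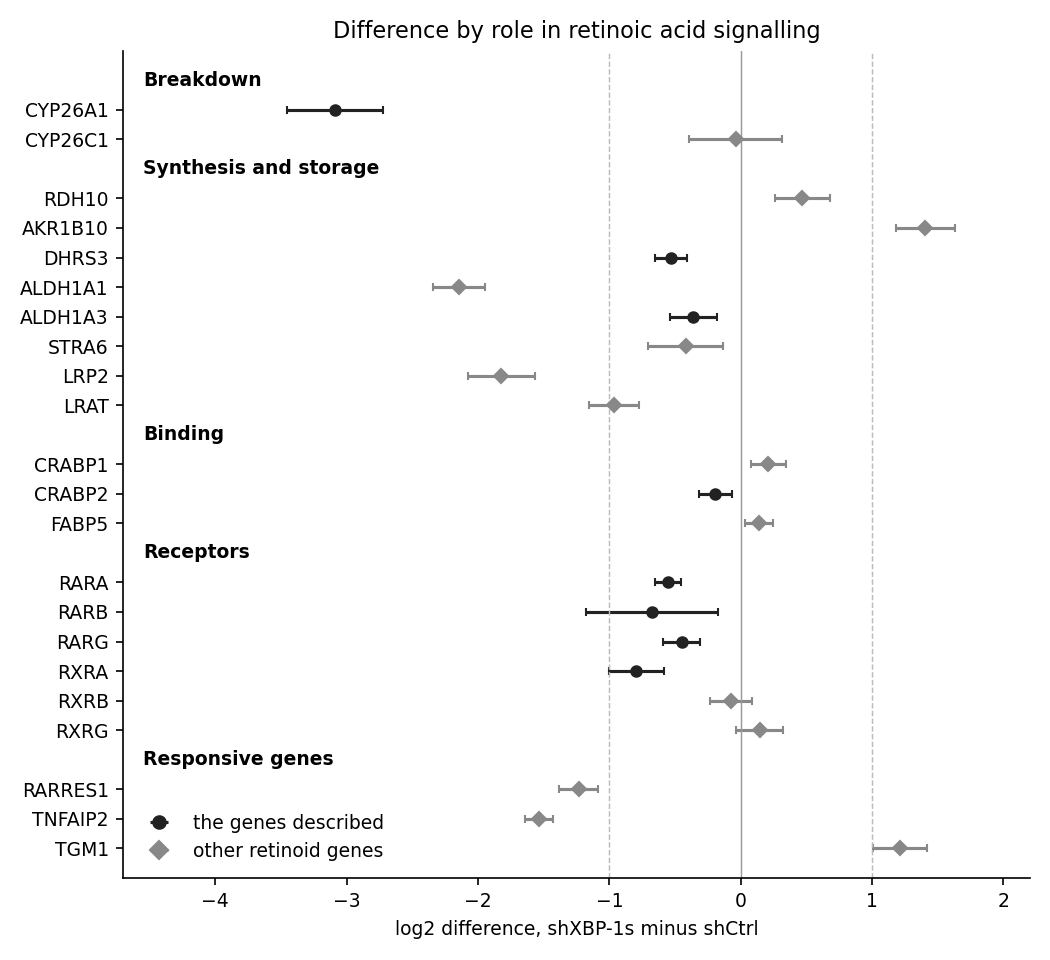
Difference between shXBP-1s and shCtrl at the brightest probe of each gene (horizontal axis, log2 units, points with 95% intervals from the fit; dashed lines mark 2-fold), grouped by role, with the members in black and the other named retinoid genes in grey. CYP26A1 lies at -3.09, the other 7 tested members lie between -0.79 and -0.19, and the grey genes lie on both sides of 0.

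The genes known to be induced by retinoic acid were followed outside the 9 members as well. Of 16 such genes tested, 2 were called, both lower, where 2.88% of all tested genes were. TNFAIP2, named for its induction by tumour necrosis factor, was at 6.14, 6.10 and 6.12 in shCtrl and at 4.60, 4.57 and 4.58 in shXBP-1s. It fell by 1.54 (SE 0.05, adjusted p = 1.18e-06). RARRES1, a retinoic acid receptor responder gene, was at -2.05, -2.02 and -1.98 against -3.20, -3.23 and -3.32. It fell by 1.23 (SE 0.06, adjusted p = 5.38e-06), and was at -0.96, under 2-fold, with no scaling between arrays. Without a minimum fold 9 of the 16 passed the adjusted p as lower, 1 as higher and 6 not, and their median difference was -0.29, against -0.04 over all tested genes, of which 27.5% passed as lower. The lists share genes, and the 9 include LRAT and STRA6, already given above with the uptake and storage genes. The responder gene PLAAT4 differed by -0.97 (SE 0.06, adjusted p = 1.66e-05) and the homeobox gene HOXA5 by -0.54 (adjusted p = 0.000466), both under 2-fold. HOXB4 and KRT19 did not pass the test, at -0.02 and -0.09, and TGM2 went opposite ways at its 2 probes, 0.46 (adjusted p = 0.000479) and -0.53 (adjusted p = 0.0163).

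Of 7 tested keratinocyte genes known to be lowered by retinoids, 1 was called. TGM1, the transglutaminase that cross-links the cornified envelope, was at -3.56, -3.39 and -3.41 in shCtrl and at -2.33, -2.31 and -2.09 in shXBP-1s, and rose by 1.21 (SE 0.09, adjusted p = 2.60e-05), or by 0.34 with normexp, where the call was lost. This call stands beside 2.30% of all tested genes called as higher. IVL, its substrate involucrin, was well above background on all 3 shXBP-1s arrays but on only 1 of the 3 shCtrl arrays. It was tested only through the group in which it was higher, so its difference is not given. The other 5 genes did not pass. Among them CASP14 was likewise well above background on all 3 shXBP-1s arrays but on only 1 shCtrl array. Over all 61 tested retinoid genes outside the 9 members, taken by their brightest probe, 2 were called as higher and 4 as lower, beside 2.30% and 2.88% of all tested genes. Without a minimum fold 11 and 20 passed, beside 18.9% and 27.5%. The 11 include IVL, which was tested only through the group in which it was higher. The median difference of the 61 genes was -0.08 against -0.04 over all tested genes.

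The genes whose profile over the 6 arrays was most like that of CYP26A1 were sought among the 16181 genes above background on all arrays, by the root mean square difference between log2 profiles that were each centred on their own mean. LY6D, a surface protein of squamous epithelium, came first at 0.244, then IL17C, an epithelial cytokine, at 0.246, the insulin-responsive glucose transporter SLC2A4 at 0.332, the adhesion receptor ADGRF5 at 0.359 and the methyltransferase TMT1A at 0.377. LY6D was at 0.60, 0.82 and 0.69 in shCtrl and at -1.91, -2.07 and -2.12 in shXBP-1s, and IL17C at 0.36, 1.01 and 0.76 against -1.98, -1.92 and -1.92. The likeness of all 5 rests mainly on the step between the groups, which were -2.74, -2.65, -2.74, -2.43 and -2.41 apart, and none of the listed retinoid genes was among them. With normexp followed by quantile normalisation SLC2A4, ADGRF5 and TMT1A were at -0.77, -0.95 and -1.19.

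The size of the CYP26A1 difference moved most with the background correction. It was -3.09 after quantile normalisation and -3.09 in the deposited log2 values, but these are nearly the same values at this probe and not 2 separate checks. The difference stayed between -3.23 and -2.97 when any 1 array was left out. After normexp correction the shCtrl arrays were at -2.72, -1.25 and -2.55 and the shXBP-1s arrays at -3.86, -3.77 and -3.64. Replicate 2 of shCtrl then stood apart from the other shCtrl arrays, also at CYP26B1 and RARB, yet the groups at CYP26A1 still did not overlap. With normexp followed by quantile normalisation the difference was -0.93 (SE 0.08), under 2-fold. Over the 20 other settings RXRA was between -0.89 and -0.52, DHRS3 between -0.62 and -0.26 and ALDH1A3 between -0.51 and -0.09. CRABP2 was between -0.26 and 0.08 at its brighter probe. RARB was between -0.95 and -0.17 at its brighter probe and between -0.997 and -0.11 at its dimmer probe. Both RARB probes were nearest to no difference with normexp followed by quantile normalisation. In log2 units these ranges are narrower than the -3.23 to -0.93 of CYP26A1, but the differences themselves are also smaller.

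**Figure D4:**
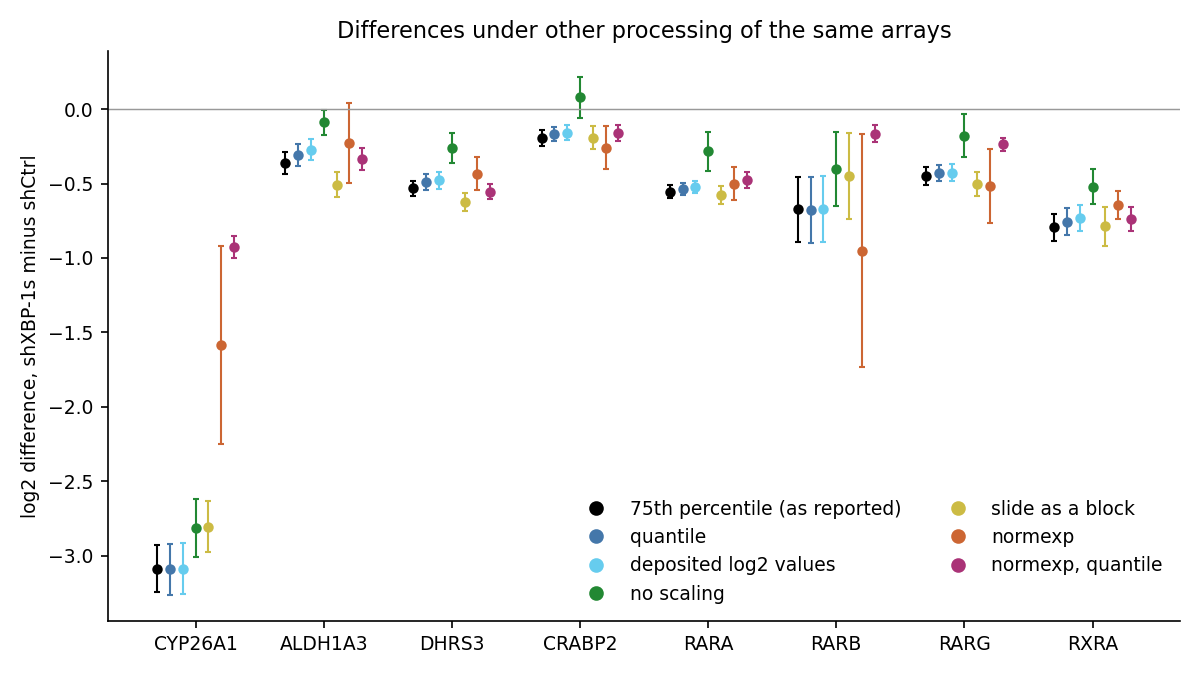
Difference between shXBP-1s and shCtrl for the 8 tested members (vertical axis, log2 units, points with standard errors) under 7 ways of processing the same arrays, shown by colour. CYP26A1 shrinks from -3.09 to -1.58 and -0.93 with the 2 normexp settings, and CRABP2 crosses 0 with no scaling between arrays.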

How the data were processed

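The 6 arrays were scanned by the authors and quantified with Agilent Feature Extraction 11.0.1.1. Per the file headers each deposited file holds the background-subtracted processed signal of every spot as an intensity, and the authors also deposited a table of log2 values for the same arrays, for which their processing notes name RMA. The columns of that table had the same median of 6.28 on all 6 arrays and followed the log2 scanner signals of their arrays (Pearson r across probes of 0.990 to 0.992), so scale and direction are known. Its values lay close to the quantile-normalised scanner signals, for CYP26A1 in shCtrl at 6.36, 6.89 and 6.70 against 6.36, 6.90 and 6.70. Low values differed, as for CYP26B1 in shCtrl, at 2.33 on each array against 1.98, 2.04 and 2.26. The steps the authors took are not given in the sources used here. From the deposited intensity, log2 of the signal minus the 75th percentile of each array over non-control spots was taken here, outlier-flagged spots (230 to 377 per array, population outliers or non-uniform) were dropped, and repeat spots averaged by probe. A probe was tested where every array of a group, or of both, had it well above background, and tested probes were fitted with limma 3.58.1 in R 4.3.3 (lmFit, eBayes with trend, 2-sided), with Benjamini-Hochberg adjustment over all 27624, and a gene was read by its brightest tested probe. In simulated data with 200 changed probes of 1.5 to 3 log2 units, 192 were recovered with 0 false calls. The simulated noise was independent and normal, with no slide or scaling effect, so this gives no error rate for the real arrays.

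Gene symbols came from RefSeq accessions (25771 of 34127 probes), and promoter windows from RefSeq (GRCh38.p14). No genome of the build named in the array headers was used here. The 9 genes, the pathway and marker lists and the tests were chosen with earlier results of these data known. Named were all 9 members, XBP1, further retinoid genes listed by name (1 of them is not reported here), up to 4 called genes per list and the 5 genes most like CYP26A1. PLAAT4, HOXA5, HOXB4, KRT19, TGM2, CREBBP and IVL were named after their values were seen. Alternatives were 2 normexp settings (run on the median signal, offset 50), quantile normalisation, the deposited log2 values, filters on dim and flagged probes, eBayes without trend, the methods' t-test, no minimum fold, slide and replicate blocks, and leaving out each array. The labels describe a NimbleGen labelling protocol, whereas the files and the study name an Agilent array. The number of arrays limits the precision, and an exact permutation test of 3 against 3 could not go below p = 0.1. DHRS9, on the oxidoreductase list, had no probe.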

Additional observations from a re-analysis of the deposited data

How the results depend on the processing

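Of 20 other settings, CYP26A1 was called in 18. Nothing is read from this count, because the gene was chosen by the same difference. Several settings change only the filter or the test, so the difference of -3.09 could not move in them. Asking no minimum fold could only keep the call. CYP26A1 was at -1.58 with normexp and -0.93 with normexp and quantile normalisation, and 0 of the 9 members were called with either. With no minimum fold 8 members, 32 other retinoid genes by any of their probes (IVL among them) and 11516 probes passed. As reported these were 1, 6 and 1354. With normexp and quantile normalisation 3 other retinoid genes were called. Probes called were 473 with normexp (159 higher and 314 lower, 449 shared with the 1354) and 363 with normexp and quantile normalisation (351 shared), and for these falls the cause was not tested. With normexp the median over all probes moved from -0.02 to -0.41. Leaving out 1 array gave 1274 to 1750 called probes, the most without shCtrl replicate 1, 1 member each time, 6 to 8 other retinoid genes, and -3.23 to -2.97 for CYP26A1. With no scaling between arrays, chosen after seeing the data, 1810 probes were called, 1458 higher and 352 lower, against 632 and 722 as reported, and 980 were shared. Signs turned for CRABP2 (0.080), CYP26C1 (0.23) and RXRB (0.20) with no scaling, for CRABP1 (-0.090) and RXRG (-0.52) with normexp, for RXRB (0.026) with slide as a block and for CYP26C1 without shXBP-1s replicate 3 (0.032, the end of a range from -0.100 over left-out arrays), and none of these passed the test there. The untested CYP26B1 turned from 0.57 to -0.94 with normexp. Of the 6 other called retinoid genes, AKR1B10, RARRES1 and TGM1 were under 2-fold with normexp and quantile normalisation, at 0.67, -0.73 and 0.75, and so were SLC2A4 and ADGRF5, at -0.77 and -0.95.

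Deviations of same-numbered arrays correlated at -0.02, 0.12 and -0.12, and those of differently numbered arrays at -0.13 to 0.12. No pairing by replicate number was seen, but 3 arrays per group cannot exclude it. With the replicate block 1381 probes were called, CYP26A1 was again at -3.09, and 1 member and 6 other retinoid genes were called. Signals near background limit what can be said of CYP26B1 and RARB.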
